A study of Homo sapiens with 6 samples.

Results

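The YAP and TGF-beta signalling genes YAP1, WWTR1, AMOTL2, ANKRD1, THBS1, TGFB1, TGFBR2, SMAD3 and SMAD7 were followed in XIST-silenced prostate cancer cells. These 9 genes were taken by symbol from a table of 25528 gene symbols. RNA-seq was performed on DU145/tet-XISTshRNA cells, a castration-resistant prostate cancer line in which doxycycline (DOX) switches on a short hairpin RNA against the long noncoding RNA XIST. All 6 samples carry the hairpin vector, 3 were given the vehicle (0.1% DMSO) and 3 were given 500 ng/ml DOX, each for 7 days. No sample combined DOX with a control hairpin, so an effect of DOX itself and an effect of silencing cannot be told apart in these libraries. The labels call the samples triplicate cultures but do not say what a replicate number stands for, and if they were not separate cultures the p-values measure technical spread only.

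YAP1 (YAP) and WWTR1 (TAZ) are paralogous transcriptional coactivators that have no DNA-binding domain of their own and act through TEAD factors, while the Hippo kinases LATS1 and LATS2 phosphorylate them and hold them in the cytoplasm. ANKRD1, AMOTL2 and THBS1 are genes they are known to activate, and AMOTL2 protein in turn binds YAP and restrains it. In the TGF-beta pathway, the ligand TGFB1 binds the type II receptor TGFBR2, which activates the type I receptor, and SMAD2 and SMAD3 are then phosphorylated and enter the nucleus with SMAD4. SMAD7 is the inhibitory SMAD that shuts the receptors down, and it is itself induced by the pathway. THBS1 (thrombospondin-1) links the pathways, because it is a YAP target whose secreted protein can release active TGF-beta from its latent form. Activity of YAP, TAZ and the SMADs is set largely by phosphorylation and localisation, which mRNA levels do not measure.

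The values deposited for each gene are TPM (transcripts per 1000000 transcripts), which divide the reads by gene length and set each sample's total to 1000000. Small noncoding RNAs (RN7SL1, RN7SL2, RN7SL3, RN7SK and RPPH1) took 67.5% to 76.0% of that total in vehicle and 76.0% to 82.6% in DOX, which leaves less TPM for all other genes of the DOX samples. TPM were therefore divided by a median-of-ratios factor for each sample and are called scaled TPM here. Reads counted on genes, recovered as described under the processing, ranged from 5453891 in vehicle replicate 3 to 64571254 in DOX replicate 1 and from 16701872 to 20352212 in the other samples. XIST, the silenced RNA, was listed at 0 in all 6 samples, but so was EIF4A1, a translation factor gene that dividing cells use, so this table gives no check of the silencing. The epithelial markers KRT8, KRT18, KRT19, EPCAM and CDH1 were all present, KLK3, a prostate luminal marker, was at 0, and the summed TPM of 5 fibroblast markers was at most 0.817 and that of 4 endothelial markers at most 0.0833. Among leukocyte markers, CD3E was at 0 and PTPRC was above 0 in 1 sample only, whereas CD68, a lysosomal gene, was present.

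All 9 genes passed the expression minimum of a mean TPM of 1, which 11672 genes met. DOX was compared with vehicle on log2(scaled TPM + 1) by limma over all 11672 genes, and a gene was called at a Benjamini-Hochberg adjusted p under 0.05 and a fold change over 1.5. By this test 0 of the 9 genes were called, and the background was 0% of all genes. Without adjustment and at any fold, 1 of the 9 genes (TGFB1) had p under 0.05, against 15.8% of all genes. Across the 9 genes, the log2 fold changes ran from -0.22 (YAP1) to 0.49 (TGFB1), 5 were below 0 and 4 above, and their median was -0.04 against 0.02 for all genes tested.

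**Figure D1:**
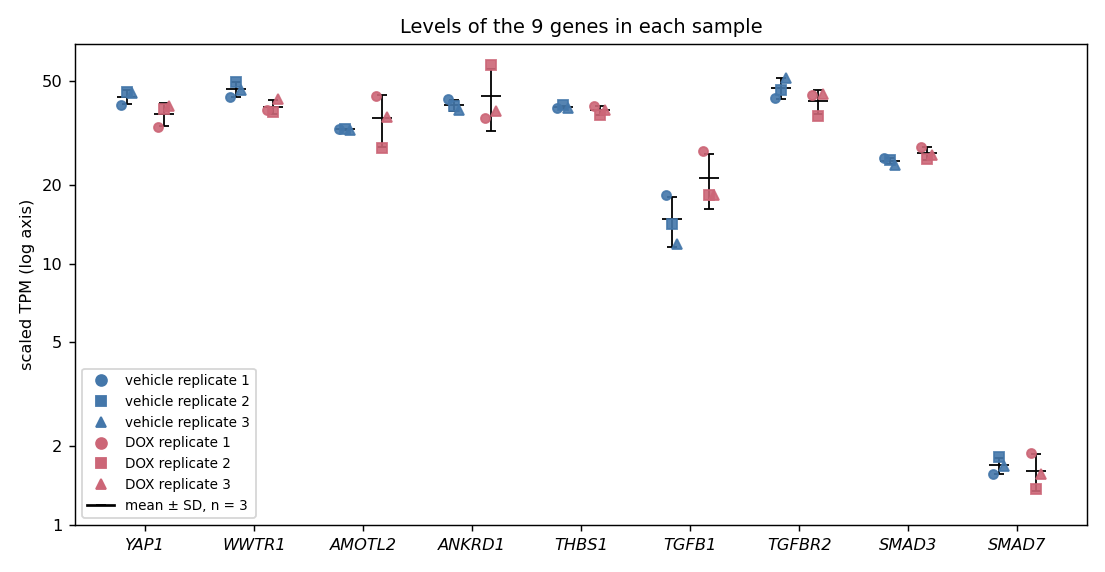
Scaled TPM (y, log axis) of the 9 genes (x) in 3 vehicle and 3 DOX samples; symbols mark the replicate number and black bars the mean ± SD. Of the 9 genes, YAP1 and WWTR1 had every DOX sample below every vehicle sample, and the DOX samples of AMOTL2 and ANKRD1 were spread more widely than their vehicle samples.

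Both coactivators were well expressed and lay lower in DOX, by amounts that did not pass the test. YAP1 (chr11:102110447-102233424, plus strand, GRCh38) is protein coding, with 6311 bases of merged exons. Its scaled TPM was 40.6, 45.5 and 45.2 in vehicle replicates 1, 2 and 3 and 33.3, 39.1 and 40.3 in the DOX replicates. Every DOX sample was below every vehicle sample, the nearest being DOX replicate 3 and vehicle replicate 1. The YAP1 log2 fold change was -0.22 ± 0.12 (SE), a fold of 0.860 with a 95% interval of 0.709 to 1.04 and a limma adjusted p of 0.387. Without DOX replicate 1, the lowest sample, the difference was -0.14. WWTR1 (chr3:149517235-149736714, minus strand) stood at 43.6, 49.9 and 46.4 scaled TPM in vehicle and 38.8, 38.2 and 42.95 in DOX. Its groups did not overlap either, and DOX replicate 3 came closest to vehicle. For WWTR1 the log2 fold change was -0.22 ± 0.12 (limma adjusted p = 0.374), and the interval of its fold was 0.717 to 1.03. The share of all tested genes with every DOX sample below every vehicle sample on scaled TPM was 9.22%, and the share with every DOX sample above was 10.8%; 2 of the 9 genes were of the first kind and 0 of the second. In the fit blocked on the replicate number, YAP1 had an adjusted p of 0.156 and WWTR1 of 0.186, and neither was called.

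The paralogs had like levels. The ratio of WWTR1 to YAP1 TPM, which no scaling of samples can alter, was 1.07 ± 0.035 (SD, n = 3) in vehicle and 1.07 ± 0.094 (SD, n = 3) in DOX. In both groups YAP1 and WWTR1 ranked at or above the 90th percentile of all tested genes by mean scaled TPM (91.8 and 92.6 in vehicle, 90.0 and 90.8 in DOX).

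The 3 target genes carry TEAD motifs before their start sites, shown here because TEAD binding is how YAP and TAZ reach DNA. GGAATG or its reverse complement CATTCC was searched on both strands of the 250 bases before each RefSeq start site (GRCh38.p14), and it was found in 11.9% of 35116 such windows. The 9 genes together have 18 windows, and the motif occurred in 4 of these 18, belonging to YAP1, AMOTL2, ANKRD1 and THBS1. The ANKRD1 window (chr10:90921088-90921337, minus strand) holds it at -220 to -215 and -128 to -123 relative to the start site, and a SMAD box (CAGACA) at -142 to -137. The THBS1 window (chr15:39580829-39581078, plus strand) holds it at -46 to -41. The windows are printed from 5′ to 3′ on the gene's strand, with matches in capitals.
ANKRD1: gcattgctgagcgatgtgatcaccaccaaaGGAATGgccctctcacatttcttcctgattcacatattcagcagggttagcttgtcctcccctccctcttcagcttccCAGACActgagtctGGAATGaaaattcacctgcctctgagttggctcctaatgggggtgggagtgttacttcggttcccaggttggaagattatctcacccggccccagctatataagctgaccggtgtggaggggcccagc
THBS1: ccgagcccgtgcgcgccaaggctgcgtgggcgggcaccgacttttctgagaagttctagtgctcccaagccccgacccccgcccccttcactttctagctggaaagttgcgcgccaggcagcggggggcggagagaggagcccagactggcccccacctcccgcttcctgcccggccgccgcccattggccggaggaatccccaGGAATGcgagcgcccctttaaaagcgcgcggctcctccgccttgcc

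For YAP1 itself and AMOTL2, only the 30 bases around the match are given, with the motif in capitals. The YAP1 site (chr11:102110273-102110302) lies at -162 to -157, and the AMOTL2 site (chr3:134374499-134374528, read on the minus strand) lies at -69 to -64 of 1 of its start sites.
YAP1: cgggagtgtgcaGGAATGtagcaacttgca
AMOTL2: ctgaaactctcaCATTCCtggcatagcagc
The other motifs searched in the same windows were the SMAD palindrome GTCTAGAC, present in 0.182% of all windows and in none of the 18, the SMAD box CAGACA, present in 13.6% and found in windows of AMOTL2, ANKRD1 and SMAD3, and the AP-1 motif TGACTCA, present in 4.20% and found in a window of SMAD3. TGFB1, TGFBR2, WWTR1 and SMAD7 held no match to any of them in these windows. Such matches describe letters and show neither binding nor its absence.

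The target genes differed in sign and none was called. ANKRD1 (chr10:90912096-90921087, minus strand), a nuclear ankyrin-repeat protein, had 42.7, 40.3 and 38.8 scaled TPM in vehicle and 36.3, 57.7 and 38.5 in DOX. DOX replicate 2 stood above all other samples, while DOX replicates 1 and 3 lay below every vehicle sample. The ANKRD1 log2 fold change was 0.09 ± 0.17 (limma adjusted p = 0.799), and without DOX replicate 2 it was -0.11. AMOTL2 (chr3:134355347-134375479, minus strand), the angiomotin-like junction protein, was nearly constant in vehicle at 32.8, 33.0 and 32.6 scaled TPM and ran over 44.1, 27.8 and 36.6 in DOX. Here DOX replicate 1 was the highest and DOX replicate 2 the lowest, with all vehicle samples between them. The coefficient of variation of AMOTL2 was 0.625% in vehicle and 22.6% in DOX, and its log2 fold change of 0.11 ± 0.16 (limma adjusted p = 0.726) became -0.04 without DOX replicate 1. THBS1 (chr15:39581079-39599466, plus strand) showed the tightest values of the targets over both groups, with 39.5, 40.5 and 39.4 scaled TPM in vehicle and 40.3, 37.3 and 38.8 in DOX. Its log2 fold change was -0.04 ± 0.11 (limma adjusted p = 0.881) and the 95% interval of its fold, 0.822 to 1.16, contains no change as large as 1.5-fold in either direction.

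Thus DOX replicate 2 had the highest ANKRD1 and the lowest AMOTL2 and THBS1 of the 6 samples. CTGF (CCN2), the matricellular protein gene often used as a readout of YAP, was also lowest there, at 23.1 scaled TPM against 46.6 and 46.9 in DOX replicates 1 and 3. Against YAP1 in the same sample, ANKRD1 ranged over 0.858 to 1.05 in vehicle and 0.956 to 1.48 in DOX, and AMOTL2 over 0.720 to 0.806 and 0.711 to 1.32. These ratios overlapped between the groups.

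On scaled TPM, TGFB1 had the largest difference of the 9 genes, which was not so on TPM as deposited or after the GC and length correction. The gene (chr19:41301587-41353922, minus strand) encodes the TGF-beta 1 ligand. Its scaled TPM was 18.3, 14.2 and 11.95 in vehicle and 27.2, 18.4 and 18.3 in DOX. DOX replicate 1 was well above the rest, and the groups met at 18.3, where vehicle replicate 1 lay level with DOX replicates 2 and 3. The log2 fold change of TGFB1 was 0.49 ± 0.19, a fold of 1.403 with a 95% interval of 1.05 to 1.88, and the limma adjusted p was 0.283. Within replicate numbers 1, 2 and 3, TGFB1 was higher in DOX by 0.54, 0.35 and 0.58 on the log2 scale. Blocking on the replicate number gave an adjusted p of 0.0562. In voom, the limma method for counts, run on the recovered reads with the same block, the log2 fold change was 0.51 ± 0.11 with an adjusted p of 0.0165. That adjusted p was under 0.05 for 1 of the 9 genes and for 13.7% of all genes. The fold of 1.42 did not reach 1.5, so that 0 of the 9 genes were called in that fit, against 3.69% of all genes.

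The TGFB1 difference moved with the scale, the samples and the joint correction for GC content and exonic length. On TPM as deposited, TGFB1 had 19.3, 15.8 and 16.9 in vehicle and 18.9, 18.5 and 17.03 in DOX, and its log2 fold change was 0.07 ± 0.26. With 1 sample left out, it ranged on scaled TPM from 0.31 (without DOX replicate 1) to 0.64 (without vehicle replicate 1, limma adjusted p = 0.163), with 0.35 without vehicle replicate 3, 0.47 without vehicle replicate 2 and 0.58 without either of DOX replicates 2 and 3. With both the deepest and the shallowest sample left out it was 0.17 (limma adjusted p = 0.951). After correction of each sample for GC content and exonic length it was 0.21 ± 0.10 (limma adjusted p = 0.421, or 0.324 with the replicate block). TGFB1 also shares 215 exonic bases (6.59% of its exons) with HNRNPUL1 on the opposite strand, and reads there are uncertain because the strand setting of the counting is not given in the sources used here.

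The receptor TGFBR2 (chr3:30606601-30694142, plus strand) had the highest vehicle mean of the 9 genes. It was measured at 43.1, 46.6 and 51.6 scaled TPM in vehicle and 44.6, 36.9 and 44.7 in DOX. The groups overlapped, and DOX replicate 2 was again the lowest sample. Its log2 fold change was -0.16 ± 0.13 (limma adjusted p = 0.525). The ratio of ligand to receptor TPM within a sample was 0.425, 0.305 and 0.232 in vehicle and 0.610, 0.498 and 0.409 in DOX, so that vehicle replicate 1 fell just inside the DOX range. TGFB1 against YAP1 was 0.451, 0.313 and 0.264 in vehicle and 0.815, 0.470 and 0.454 in DOX, with every DOX sample above every vehicle sample. These ratios were chosen after the values were seen and are given as a description. TGFB1 has 62.1% exonic GC, TGFBR2 44.7% and YAP1 43.3%, and fold changes of all genes ran with GC content, as given below.

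SMAD3 (chr15:67063763-67195173, plus strand), the receptor-activated SMAD that binds DNA, was nearly level. It had 25.5, 24.97 and 24.04 scaled TPM in vehicle and 28.1, 25.2 and 26.2 in DOX, with a small overlap between the groups. The SMAD3 log2 fold change was 0.09 ± 0.11 (limma adjusted p = 0.691), and its fold had a 95% interval of 0.893 to 1.27. SMAD7 (chr18:48919853-48950965, minus strand), the inhibitor, was by far the lowest member, at 1.57, 1.82 and 1.68 scaled TPM in vehicle and 1.89, 1.37 and 1.57 in DOX. The DOX samples lay on both sides of vehicle. Its log2 fold change was -0.05 ± 0.13 (limma adjusted p = 0.866) and became 0.02 without DOX replicate 2. The pseudocount of 1 is large beside such levels and narrows this spread. With a pseudocount of 0.1 the log2 fold change of SMAD7 was -0.08 ± 0.20, with a fold interval of 0.692 to 1.30. SMAD7 rested on 43 to 610 reads per sample, while each of the other 8 genes had at least 238 reads in every sample. The ratio of SMAD7 to SMAD3 was 0.0681 ± 0.0057 (SD, n = 3) in vehicle and 0.0605 ± 0.0064 (SD, n = 3) in DOX, and these ranges overlapped.

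**Figure D2:**
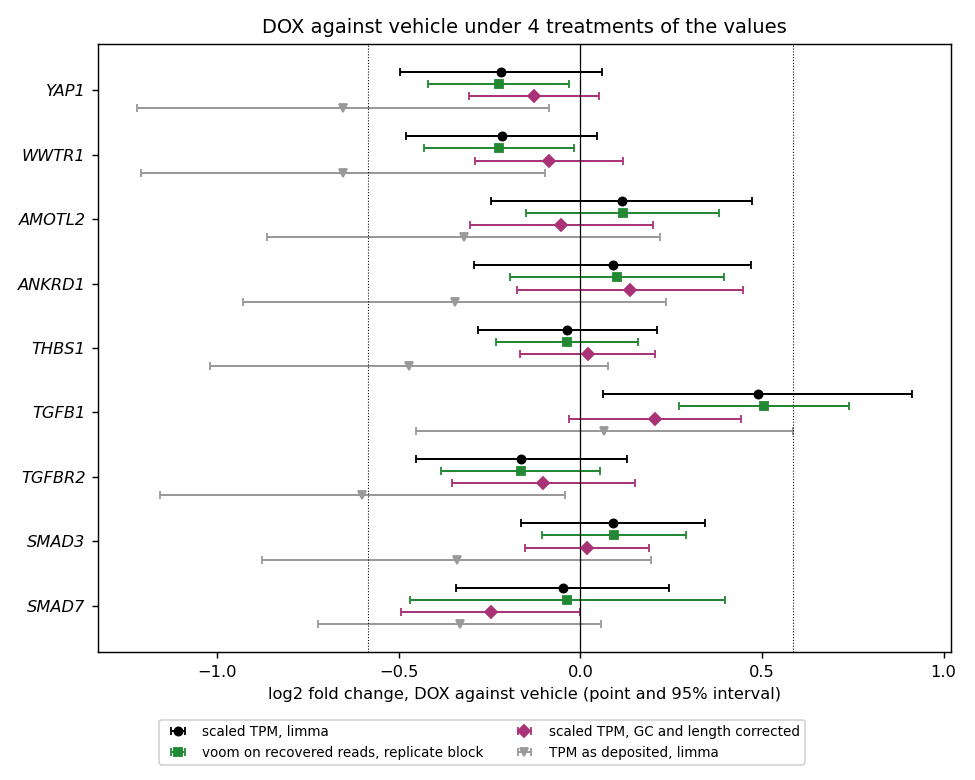
Log2 fold change of each gene, DOX against vehicle (x, points with 95% intervals; dotted lines mark 1.5-fold), in 4 fits distinguished by symbol. Intervals of TGFB1 exclude 0 on scaled TPM and in the blocked voom fit and include it after GC and length correction and on TPM as deposited, where all points lie further left.

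In vehicle, mean scaled TPM fell in the order TGFBR2 (47.1 ± 4.2), WWTR1 (46.6 ± 3.1), YAP1 (43.8 ± 2.7), ANKRD1 (40.6 ± 2.0), THBS1 (39.8 ± 0.62), AMOTL2 (32.8 ± 0.20), SMAD3 (24.8 ± 0.72), TGFB1 (14.8 ± 3.2) and SMAD7 (1.69 ± 0.12), each ± SD with n = 3. Neighbours among the first 5 overlapped in their ranges, and each later step separated the ranges of neighbouring genes. In DOX the mean order was ANKRD1 (44.2 ± 12), TGFBR2 (42.0 ± 4.5), WWTR1 (40.0 ± 2.6), THBS1 (38.8 ± 1.5), YAP1 (37.6 ± 3.7), AMOTL2 (36.1 ± 8.2), SMAD3 (26.5 ± 1.5), TGFB1 (21.3 ± 5.1) and SMAD7 (1.61 ± 0.26), and only the last step separated neighbours. SMAD7 lay at the 10.98th percentile of tested genes in vehicle and the 10.02nd in DOX.

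The scale decided how many of these genes appeared lower. On TPM as deposited, 8 of the 9 genes had a log2 fold change below 0, with a median of -0.35, and 93.1% of all genes did too, with the same median of -0.35. On that scale 7 of the 9 genes had every DOX sample below every vehicle sample, against 30.7% of all genes. YAP1, for example, had 42.7, 50.5 and 63.8 TPM in vehicle and 23.1, 39.3 and 37.5 in DOX. The limma fit of TPM without a block called 0 of the 9 genes. With the replicate block it called 3 lower, YAP1 and WWTR1 (log2 fold change -0.65 for each, adjusted p = 0.00800 and 0.00805) and TGFBR2 (-0.60, adjusted p = 0.0151), where 19% of all genes were called lower. In that fit the standard errors of the 9 genes all lay between 0.18 and 0.20.

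**Figure D3:**
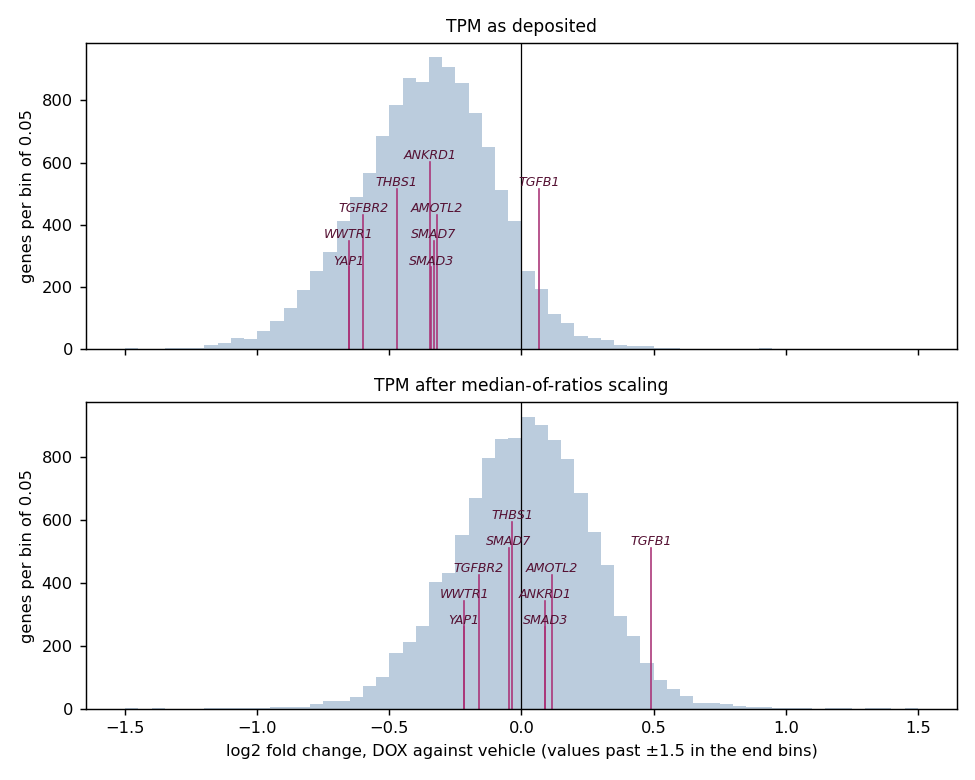
Number of tested genes (y) by log2 fold change, DOX against vehicle (x, bins of 0.05), on TPM as deposited (top) and on scaled TPM (bottom), with the 9 genes as labelled lines whose heights carry no value. The whole distribution sits at a median of -0.35 on TPM and 0.02 on scaled TPM. YAP1 and WWTR1 are the lowest and TGFB1 the highest of the 9 on both scales.

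Fold changes of all genes ran with the GC content of their exons. Over 11385 genes with an annotation, the Spearman correlation of GC content with log2 fold change was 0.69, a description across genes that share the same 6 libraries. Genes of at least 60% GC had a median log2 fold change of 0.27 and genes of at most 43% GC a median of -0.18. Among the 9 genes the Pearson correlation was 0.76. TGFB1 has the highest GC content (62.1%), and ANKRD1, WWTR1 and YAP1 the lowest (42.1%, 42.6% and 43.3%), around a median of 47.0% for tested genes. Against the genes of their own GC group (10 groups of equal size), AMOTL2, THBS1 and SMAD3 lay inside the middle 50% and the other 6 outside. TGFB1 lay 0.22 above the median of its group, ANKRD1 0.22 above, and YAP1, WWTR1, TGFBR2 and SMAD7 below theirs, with differences of -0.15, -0.15, -0.15 and -0.22. After the GC and length correction the YAP1 log2 fold change was -0.13 and that of WWTR1 -0.09. SMAD7 then had the largest difference of the 9 genes, -0.25 ± 0.11 (limma adjusted p = 0.376), and 0 of the 9 genes were called.

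**Figure D4:**
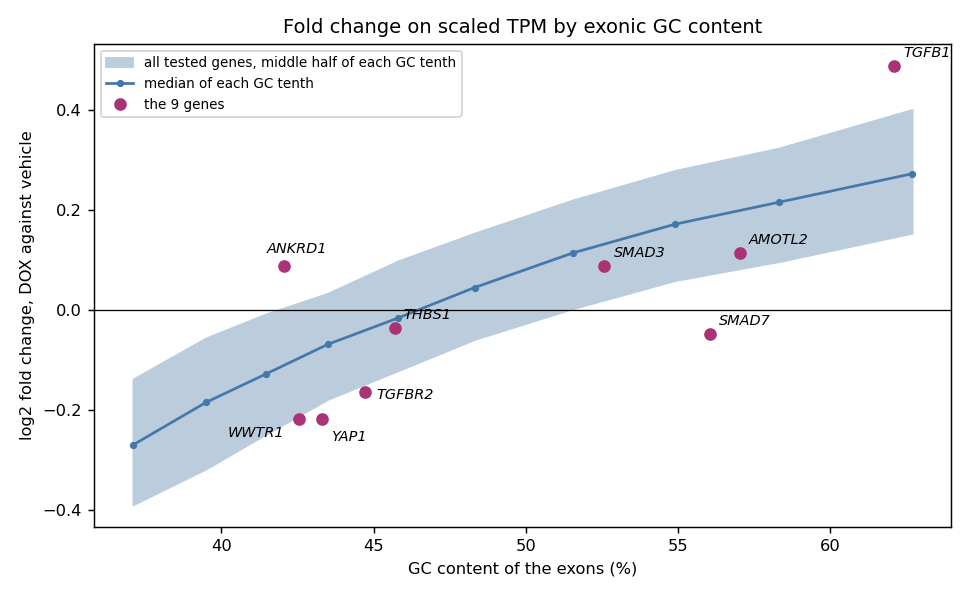
Log2 fold change on scaled TPM (y) against the GC content of the exons (x, %) for the 9 genes (points), with the median (line) and the middle 50% (band) of all tested genes in each of 10 equal groups by GC content. The line rises from -0.27 in the lowest group to 0.27 in the highest, with TGFB1 and ANKRD1 above the band, SMAD7, TGFBR2 and YAP1 below it and WWTR1 at its lower edge.

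The wider pathways were read from 8 lists holding 94 genes, of which 80 were tested. On scaled TPM 0 of the 80 were called, and 16 of them (20%) had an unadjusted p under 0.05, close to the 15.8% of all genes. In the voom fit with the replicate block 4 of the 80 (5%) were called and all 4 were lower, against 3.69% of all genes. Of all 11672 genes that fit called 261 lower and 170 higher, the background for each list count below. At any fold, an adjusted p under 0.05 was reached by 18 of the 80 (22.5%), 14 of them lower and 4 higher in DOX, against the 13.7% of all genes given above. On scaled TPM the 80 genes had a median log2 fold change of -0.06. The 4 genes called in the blocked voom fit, BMPR2, RBMS3, MOB1B and CTGF, had limma adjusted p of 0.280, 0.280, 0.286 and 0.289 there. Voom without the block called 0 of the 80.

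Among the 80 genes, the largest difference in the blocked voom fit was in BMPR2, the type II receptor for bone morphogenetic proteins. BMPR2 had 18.1, 23.4 and 23.2 scaled TPM in vehicle and 8.76, 17.1 and 11.7 in DOX, with no overlap. It was lower by the blocked voom fit (log2 fold change -0.83 ± 0.12, adjusted p = 0.00804) and was the 1 receptor called of 8 tested, against 3.69% of all genes. ACVR2B, an activin receptor, had a log2 fold change of -0.42 in that fit (adjusted p = 0.0448, under 1.5-fold), and TGFBR1, the type I receptor that TGFBR2 activates, had -0.25 (adjusted p = 0.0959). Of the 6 other SMADs, 5 had a log2 fold change below 0 on scaled TPM, as did 47.4% of all genes, and 0 were called. The median of these 6 SMADs was -0.23 on scaled TPM and -0.08 after GC and length correction. SMAD2, the partner of SMAD3 in TGF-beta signalling, had 30.02, 35.97 and 35.14 scaled TPM in vehicle and 19.5, 24.1 and 25.7 in DOX (blocked voom log2 fold change -0.55, adjusted p = 0.0106, a fold under 1.5). SMAD5, which serves the BMP branch, had -0.53 (adjusted p = 0.0204) and SMAD4, the shared partner, -0.29 (adjusted p = 0.0558) in the same fit. As SMAD3 was level, its ratio to SMAD2 was 0.684 to 0.848 in vehicle and 1.02 to 1.44 in DOX, without overlap. This ratio too was chosen after the values were seen. SMAD3 has 52.6% exonic GC and SMAD2 40.7%, and after GC and length correction their log2 fold changes were 0.02 and -0.31.

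Of 18 Hippo kinases and scaffolds, 11 had a log2 fold change below 0 on scaled TPM and 7 above, where 47.4% of all genes were below 0. In the blocked voom fit 1 of the 18 was called lower and 0 higher, against 3.69% of all genes called in either direction. MOB1B, a coactivator of the LATS kinases, had 7.94, 10.96 and 10.55 scaled TPM in vehicle and 4.12, 9.43 and 5.71 in DOX (log2 fold change -0.66 ± 0.14, adjusted p = 0.0157). Its paralog MOB1A (-0.43, adjusted p = 0.0156) and the upstream kinase TAOK1 (-0.46, adjusted p = 0.0178) were under 1.5-fold. NF2, on the same list, had the opposite sign and was also under 1.5-fold (0.35, adjusted p = 0.0397). Among 5 tested TEAD and VGLL genes 0 were called. TEAD1, by far the most abundant TEAD listed with 52.8 to 82.8 scaled TPM, had -0.33 (adjusted p = 0.0326), whereas TEAD3 had 0.42 (adjusted p = 0.0656) and TEAD4 0.26 (adjusted p = 0.214). VGLL1 and VGLL3 were listed at 0 in all samples.

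Of 19 tested YAP and TAZ target genes, 2 were called lower and 0 higher in the blocked voom fit, against 3.69% of all genes called in either direction. On scaled TPM 11 of the 19 had a log2 fold change below 0 and 8 above, where 47.4% of all genes were below 0. CTGF had 52.0, 55.9 and 61.1 scaled TPM in vehicle against the DOX values of 46.6, 23.1 and 46.9, so that all DOX samples were lower (log2 fold change -0.60 ± 0.17, adjusted p = 0.0398). RBMS3, an RNA-binding protein gene, had 4.43, 5.65 and 4.77 in vehicle and 2.52, 4.03 and 2.87 in DOX (-0.67 ± 0.11, adjusted p = 0.0110). FJX1 had the opposite sign and was under 1.5-fold (0.53 ± 0.13, adjusted p = 0.0224). CTGF is also on the list of TGF-beta targets, where it was the 1 gene called of 14 tested, against the same 3.69% of all genes. ID1, a BMP and TGF-beta responsive inhibitor of differentiation, had 0.41 (adjusted p = 0.0375), and SKIL, the negative regulator SnoN that the pathway induces, had -0.41 (adjusted p = 0.0268).

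Among 6 tested ligands and latency genes 0 were called. TGFB2, the second TGF-beta ligand, had 9.67, 10.1 and 10.9 scaled TPM in vehicle and 8.74, 8.58 and 9.15 in DOX (-0.21, adjusted p = 0.168), with DOX lower throughout and opposite in direction to TGFB1. GDF11 had 0.27 (adjusted p = 0.160) and LTBP4, a latent TGF-beta binding protein, 0.26 (adjusted p = 0.356). Of 12 tested SMAD regulators 0 were called. The SMAD phosphatase PPM1A (-0.44, adjusted p = 0.0195), the SMAD4 ubiquitin ligase TRIM33 (-0.48, adjusted p = 0.0229) and the deubiquitinase USP15 (-0.47, adjusted p = 0.0358) were all under 1.5-fold. After GC and length correction 0 of the 80 genes were called, and the log2 fold changes of BMPR2, CTGF, RBMS3 and MOB1B were -0.53, -0.74, -0.30 and -0.25, those of PPM1A and USP15 -0.04 each. Of these, CTGF lay further from 0 than in the blocked voom fit, where it had -0.60, and the others lay nearer 0. The genes that follow were also nearer 0 than in the blocked voom fit. SMAD5 had -0.28, ACVR2B -0.23, TAOK1 -0.24, MOB1A -0.18, TEAD1 -0.20 and TRIM33 -0.21. SKIL had -0.08, TGFBR1 -0.01, FJX1 0.12 and ID1 0.17. TGFB2 and TGFB1, with 42.3% and 62.1% exonic GC, had -0.08 and 0.21. The same correction turned the direction of SMAD4 (0.03), TEAD4 (-0.10) and LTBP4 (-0.04), and TEAD3 had 0.09.

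**Figure D5:**
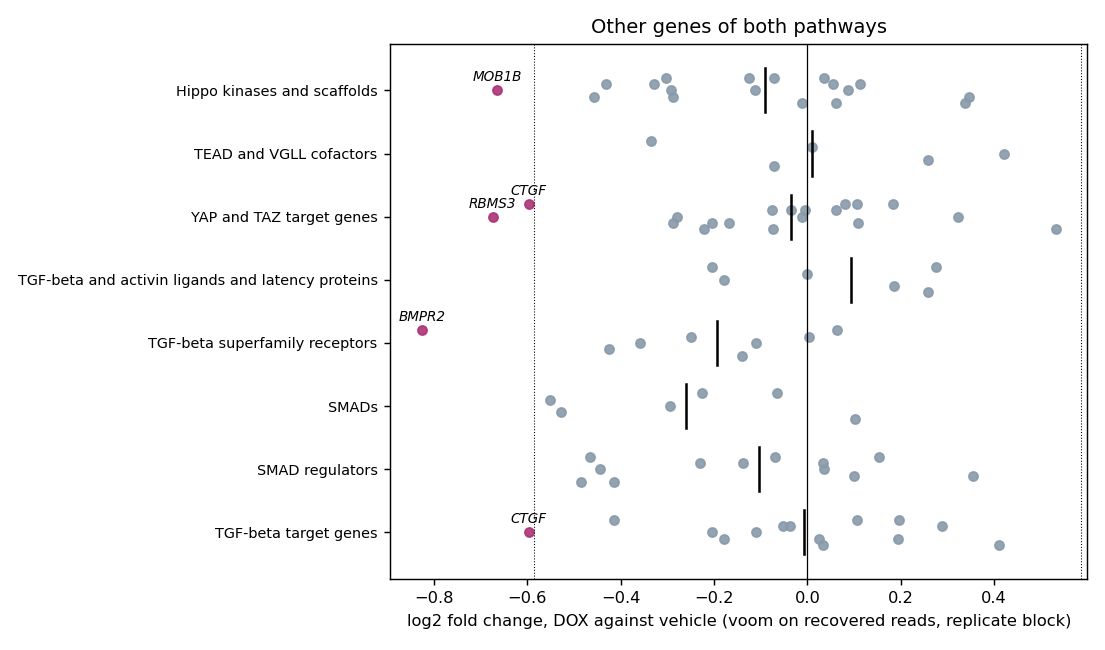
Log2 fold change in the voom fit with the replicate block (x) of the tested genes of each pathway list (y); black bars are list medians and dotted lines mark 1.5-fold. The called genes, in purple, are MOB1B, CTGF, RBMS3 and BMPR2, all lower in DOX, and list medians lie between -0.26 and 0.09.

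The gene whose profile over the 6 samples was most like each member, by Pearson r on log2(scaled TPM + 1) among all tested genes, was SEPSECS for YAP1 (r = 0.998), PLSCR4 for WWTR1 (0.995), CLCF1 for AMOTL2 (0.990) and LAP3 for ANKRD1 (0.989). PAN2 was closest to THBS1 (0.979), TRAPPC1 to TGFB1 (0.997), R3HDM2 to TGFBR2 (0.996), GMPR2 to SMAD3 (0.996) and BMP8B to SMAD7 (0.994). None of these is another of the 9 genes. With 6 samples and 11672 genes searched, such values describe the libraries and carry no test.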

How the data were processed

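RNA-seq was analysed from 3 vehicle and 3 DOX samples, grouped by their labels. The authors prepared stranded mRNA libraries, used STAR for alignment to GRCh38 and deposited TPM for each gene symbol. The authors also deposited a DESeq2 table for DOX against vehicle, of which only the mean normalized count over all samples (a coverage-like signal) was used; its fold changes and p-values are the authors' findings and were not used. Tool versions, how reads were counted and whether strand was used are not given in the sources used here.

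Reads were recovered from TPM and that mean; 98.9% of 22732 low values were whole within 0.05, against 10% by chance. TPM keeps no depth, so no count test was the main result. TPM were divided by median-of-ratios factors of 0.694 to 1.41, transformed with a pseudocount of 1 and tested with limma (3.58.1, R 4.3.3; eBayes with trend, no block) over 11672 genes with mean TPM of at least 1. p-values are two-sided. Alternatives were TPM as deposited, voom on recovered reads, the replicate block, a GC and length correction (spline with 5 degrees of freedom, GENCODE on GRCh38, 92.1% of symbols matched), another pseudocount, other minimums and each sample left out. Leaving out the shallowest and deepest samples together was chosen after seeing the data. Scripts were tested on simulated data.

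Same-numbered vehicle and DOX samples deviated together across genes (r = 0.55, 0.26 and 0.18 for numbers 1, 2 and 3), which is the only evidence of pairing. Samples with different numbers had r from -0.42 to 0.22, the highest being vehicle 2 with DOX 3, above the 0.18 of number 3. After GC and length correction r was 0.16, 0.01 and 0.15 for the same numbers and up to 0.10 for different ones. The rule was to treat samples as paired only if all 3 same-number correlations were over 0.10. It was met on scaled TPM but not after the correction. The main fit was left without a block, and blocked fits are given as alternatives. The 9 genes and the lists were chosen with earlier results of these data known. Besides the 9 genes, each list gene called on scaled TPM or in the blocked voom fit was named, with the 3 of each list that changed most on scaled TPM, and CTGF is listed under its older symbol. Marker genes, NF2, VGLL1 and VGLL3 were named in addition. Some list and marker genes are not reported here. Promoter windows are from RefSeq. Overlapping exons on the opposite strand also exist for YAP1, WWTR1, THBS1 and SMAD3.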

Additional observations from a re-analysis of the deposited data

How the results depend on the processing

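The analysis is limited by 3 samples a group, by depths from 5453891 to 64571254 reads and by the single comparison without a control hairpin. On scaled TPM, 0 genes were called lower and 0 higher (133 and 136 at unadjusted p under 0.05 and over 1.5-fold, by limma), and 0 members and 0 list genes were called. TPM as deposited called 348 genes lower and 3 higher, and 5 list genes. With the replicate block, TPM called 2217 lower and 15 higher, 3 members and 25 list genes, whereas the block alone on scaled TPM called 0. Voom called 1 gene lower and 0 higher without the block, and 261 lower, 170 higher and 4 list genes with it. Leaving out 1 sample at a time gave 0 to 1 genes lower and 0 to 15 higher (1 and 15 without vehicle replicate 1, 1 lower without DOX replicate 1) and 0 members; leaving out the shallowest and deepest gave 1 lower and 2 higher. Among single genes, AMOTL2 reversed from 0.11 to -0.32 on TPM with or without the block, to -0.052 under GC and length correction with or without it, and to -0.042 without the shallowest and deepest samples; with 1 sample left out it ranged from -0.038 (without DOX replicate 1) to 0.29. ANKRD1 reversed from 0.09 to -0.35 on TPM with or without the block, and ranged from -0.11 (without DOX replicate 2) to 0.21 with 1 sample left out. SMAD3 reversed from 0.09 to -0.34 on TPM with or without the block, THBS1 from -0.04 to 0.020 under GC and length correction with or without the block, and SMAD7 ranged from -0.12 to 0.019 (without DOX replicate 2) with 1 sample left out. None of these was called, and the causes were not tested. YAP1, WWTR1, TGFB1 and TGFBR2 kept their direction under all 17 alternatives. The other 136 comparisons of a result with an alternative kept their direction and their side of the threshold, the replicate block on scaled TPM included.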
